A study of Bos taurus with 15 samples.

Results

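The proteasome genes of bovine blastocysts were taken from a table of read counts of embryos cultured with or without extracellular vesicles of the oviduct (oEVs). All genes whose bovine symbol begins with PSMA, PSMB, PSMC, PSMD, PSME, PSMF or PSMG followed by a number were included, which gave 46 of the 10832 genes left by the low-count filter of the authors. Of these, 44 code for a subunit, a regulator or an assembly chaperone of the proteasome. The other 2, PSMC3IP and PSME3IP1, were caught by their symbols alone, are named for their interaction with proteasome proteins, and were kept out of the subunit groups.

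In vitro-produced bovine embryos were cultured without oEVs (Co), with fresh oEVs (FeEV) or with oEVs that had been frozen and thawed (FoEV). Each library was made from 1 ng of total RNA of a pool of 8 to 14 blastocysts, labelled as day 7, and 5 libraries were sequenced per treatment. The oEVs of both treatments came from the oviductal fluid of postovulatory cows collected at a slaughterhouse. The libraries were chosen for RNA quality and amount from 21 pools. The parents and culture rounds of the pools are not stated, so the p-values measure the spread between these pools only.

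Total counts per library ranged from 2136713 to 4058887. They lay between 2571558 and 2977004 in Co, between 2136713 and 3808602 in FeEV and between 3392613 and 4058887 in FoEV, so that every FoEV library was deeper than every Co library. Ribosomal RNA genes took 15.5 to 28.0% of the counts in Co, 16.3 to 25.98% in FeEV and 15.9 to 28.2% in FoEV. All 11 trophectoderm markers had counts. CPM values are counts scaled to a common library size, with TMM factors except for the cell type markers. The summed level of the trophectoderm markers was 7642 to 10360 CPM in Co, 7864 to 12230 CPM in FeEV and 9045 to 14420 CPM in FoEV. Among them KRT18, a keratin of the outer embryonic epithelium, lay at 2177 to 2833 CPM in Co and at 3314 to 4881 CPM in FoEV, without overlap on this scale. GATA3 did not overlap either on this scale, with 192 to 211 CPM in Co and 221 to 243 CPM in FoEV. The other trophectoderm markers overlapped between Co and FoEV. The list of the epiblast or inner cell mass ran from 360 to 445 CPM in Co and from 321 to 447 CPM in FoEV. Within it NANOG overlapped, with 48.4 to 91.4 CPM in Co and 24.4 to 66.95 CPM in FoEV. Each other marker of that list reached higher in FoEV than in Co. The hypoblast list ran from 565 to 874 CPM in Co and from 553 to 730 CPM in FoEV. The oviduct epithelium list was carried by EPCAM, which embryos express as well, and its defining marker OVGP1 did not pass 1.59 CPM in any library. The 5 immune cell markers together stayed at or below 8.87 CPM and the 5 cumulus cell markers at or below 15.2 CPM. Depth thus moved with FoEV, as did KRT18 and GATA3 on the scale without TMM factors. These factors ran from 0.884 to 1.093 in Co and FoEV, and whether the 2 markers overlap with them was not tested. With counts thinned to the smallest library, 10 of the 46 proteasome genes had an unadjusted p below 0.05 in FoEV against Co, beside 13.8% of all genes. Without thinning there were 11, beside 15.1% of all genes. The median log2 fold change of the 46 was 0.076 with thinning and 0.066 without. The part of KRT18 and GATA3 in the results was not tested.

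The proteasome degrades proteins that have been tagged with chains of ubiquitin. Its barrel-shaped core consists of outer rings of alpha subunits, which form a gate, and inner rings of beta subunits, some of which carry the proteolytic sites. A regulatory cap sits at the end of the barrel, with a base that binds, unfolds and pushes the substrate inward and a lid that removes the ubiquitin chain. In the early embryo, this machinery is known for the removal of maternal proteins as the embryo switches to its own transcripts.

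The comparison between FoEV and Co addressed whether frozen oEVs changed these genes, and PSMD4 was the gene nearest to the adjusted threshold. By the quasi-likelihood test of edgeR, 0 of the 46 had an adjusted p below 0.05, beside 0.00923% of all genes tested. The likelihood ratio test with a robust dispersion called 1 of the 46, beside 2.87% of all genes, and DESeq2 called 1 of the 46, beside 1.27% of all genes. That gene was PSMD4 with both tools.

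At an unadjusted p below 0.05, 9 of the 46 genes (19.6%) were higher in FoEV, compared with 8.18% of all genes, and 2 (4.35%) were lower, compared with 6.88% of all genes. The 9 were PSMB2, PSMB4, PSMB6, PSMB7, PSMC3, PSMD3, PSMD4, PSMD8 and PSMD11, and the 2 were PSMD5 and PSME1. Without regard to p, 31 of the 46 (67.4%) were higher in FoEV than in Co, beside 52.3% of all genes. Over the 46 genes the median log2 fold change was 0.066, and over all genes tested it was 0.015. The median of the 46 was 0.030 without FoEV replicate 3 and 0.040 without Co replicate 4, and at most 0.084 with another library left out. The count of 11 at an unadjusted p below 0.05 stood beside 15.06% of all genes. It dropped to 6 without Co replicate 4, beside 11.48% of all genes. It likewise dropped to 6 without FoEV replicate 1, beside 13.01% of all genes. These are bulk samples, in which fewer cells of a type and less RNA per cell cannot be told apart.

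The spread between the libraries of a treatment was modest for most of these genes. The median coefficient of variation within treatments was 10.98% over the 46 genes. It was 16.8% over all genes tested and 11.6% over the 3963 genes at or above the lower quartile of the proteasome genes in mean CPM. PSMC3 varied least, with 6.28%, and PSMB10 most, with 32.2%. The length of the transcripts was not used here, and therefore levels are compared between treatments and not between genes.

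**Figure D1:**
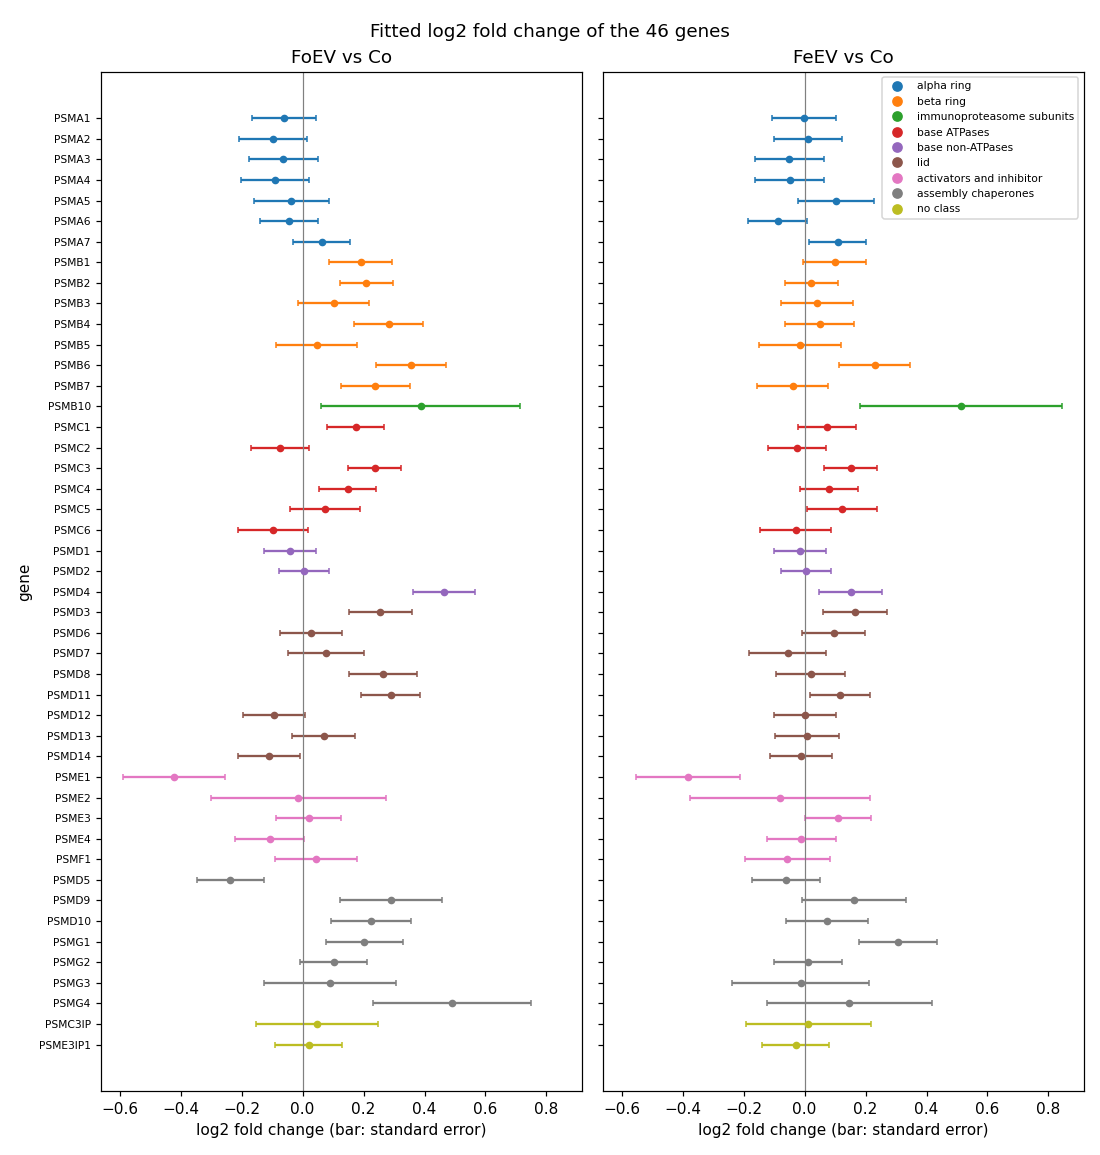
Fitted log2 fold change of each of the 46 genes (points, with the standard error as bars) for FoEV against Co (left) and FeEV against Co (right), coloured by subunit group. In the left panel all 7 beta ring genes lie right of 0, 6 of the 7 alpha ring genes lie left of 0, and PSMD4 at 0.46 lies farthest right among the subunits of the cap.

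PSMD4 (gene 282016) codes for a ubiquitin receptor of the base. Here and in the following, values of single libraries are in the order of replicates 1 to 5. The deposited counts were 216, 221, 247, 187 and 210 in Co, 298, 216, 314, 165 and 337 in FeEV, and 528, 433, 402, 343 and 318 in FoEV. After scaling, these were 78.8, 74.6, 79.7, 75.1 and 86.2 CPM in Co, 88.8, 80.2, 98.2, 75.2 and 94.1 CPM in FeEV and 122, 109, 111, 114.5 and 86.7 CPM in FoEV. All 5 FoEV libraries lay above all 5 Co libraries, by a narrow margin between FoEV replicate 5 and Co replicate 5, while FeEV overlapped with both.

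The means of PSMD4 were 78.8 ± 4.67 CPM in Co, 87.3 ± 9.57 CPM in FeEV and 109 ± 13.3 CPM in FoEV (SD, n = 5 each). Against Co, PSMD4 was higher in FoEV by a log2 fold change of 0.46 (SE 0.10), a 1.38-fold difference, with an adjusted p of 0.0757 by edgeR's quasi-likelihood test. The adjusted p was 0.00156 by the likelihood ratio test with a robust dispersion and 0.00767 by DESeq2. It was 0.0200 when the unfiltered table was tested and 0.0415 when only genes with a mean of at least 20 CPM were tested. It stayed above 0.05 with RLE factors (0.0744), without ribosomal RNA genes (0.0744), with the filter of the study's methods (0.0812), in a fit of the FoEV and Co libraries alone (0.142) and with the library number of the descriptions as a block (0.172). With counts thinned to the smallest library, the log2 fold change was 0.41 and the adjusted p 0.118. Leaving out a single library gave adjusted p-values between 0.0543 and 0.216. A two-sided exact permutation test of log2(CPM + 1) gave p = 0.00794, the smallest p that the 252 assignments of 5 against 5 libraries allow. PSMD4 was also among the genes that the study itself listed from these libraries, so that its values are no independent evidence of its direction.

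In FeEV against Co, PSMD4 differed by 0.15 (SE 0.10) on the log2 scale, with an exact permutation p of 0.103. In FoEV against FeEV, it was higher in FoEV by 0.31 (SE 0.10), with an adjusted p of 0.486 by edgeR and an exact permutation p of 0.0317. The comparisons of FoEV and of FeEV with Co share the Co libraries, and the comparisons of FoEV with Co and with FeEV share the FoEV libraries.

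**Figure D2:**
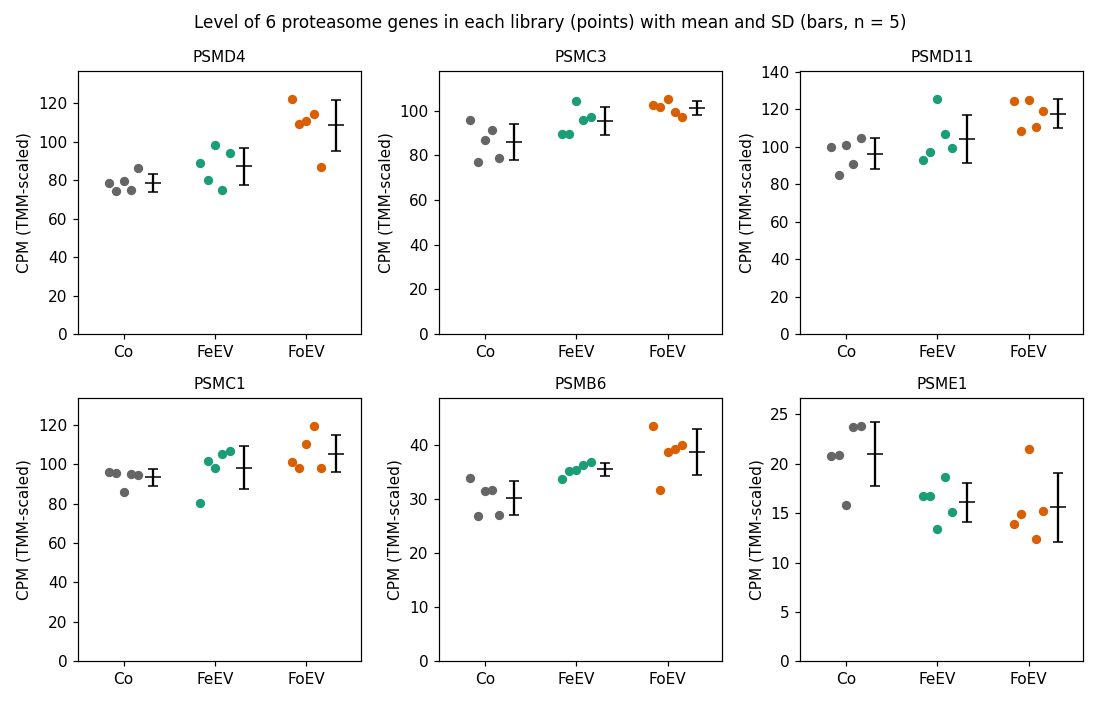
Level of PSMD4, PSMC3, PSMD11, PSMC1, PSMB6 and PSME1 in CPM (vertical axes, from 0) in each of the 15 libraries (points, by treatment), with the mean and SD of the 5 libraries as bars. The FoEV points of PSMD4, PSMC3, PSMD11 and PSMC1 lie above all Co points, whereas FoEV and Co overlap in PSMB6 and PSME1.

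The alpha and beta rings of the core lay on opposite sides of 0 in FoEV against Co. The median log2 fold change was −0.061 over the 7 alpha ring genes and 0.21 over the 7 beta ring genes. In the alpha ring, 1 of 7 genes was higher in FoEV and none had an unadjusted p below 0.05, while in the beta ring all 7 were higher and 4 had an unadjusted p below 0.05. The difference between the rings was not tested.

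The summed level of the alpha ring was 561, 633, 693, 594 and 668 CPM in Co, 624, 614, 666, 642 and 637 CPM in FeEV and 659.9, 634, 637, 483 and 646 CPM in FoEV. FoEV replicate 4 was the lowest of all 15 libraries, and the other FoEV libraries lay within the range of Co. Without FoEV replicate 4, the median of the alpha ring was 0.015 against Co and 0.0235 against FeEV, in place of −0.061 and −0.046, so that the sign of both medians depends on this library. Over all libraries left out in turn, the median ran from −0.11 to 0.015 against Co and from −0.096 to 0.0235 against FeEV.

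The summed level of the beta ring was 471, 453, 447, 419.8 and 460.4 CPM in Co, 475, 434.5, 471, 456 and 477 CPM in FeEV and 579.8, 466.4, 575, 446 and 531 CPM in FoEV. FoEV replicates 1, 3 and 5 lay above all Co and FeEV libraries, and FoEV replicates 2 and 4 lay within their range. When a single library was left out, the median of the beta ring stayed between 0.18 and 0.24 in FoEV against Co.

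Among the alpha ring genes, PSMA7 had the highest log2 fold change in FoEV against Co, 0.062 (SE 0.093), and PSMA2 the lowest, −0.099 (SE 0.11). PSMA7 was measured at 129 ± 5.76 CPM in Co and 135 ± 18.7 CPM in FoEV, and PSMA2 at 80.2 ± 7.90 CPM and 74.7 ± 12.01 CPM (SD, n = 5 each). Without FoEV replicate 3, the difference in PSMA7 was −0.013 and that was then also the median of the 15 core genes, which was 0.062 with all libraries. That median was 0.040 without Co replicate 4, 0.11 without FoEV replicate 2 and 0.12 without FoEV replicate 4. All 7 alpha ring genes had their lowest FoEV value in replicate 4.

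PSMB6 codes for the catalytic subunit with caspase-like activity. Its level was 33.9, 27.0, 31.6, 31.7 and 27.1 CPM in Co, 33.7, 35.3, 35.4, 36.4 and 36.9 CPM in FeEV and 43.5, 31.8, 38.9, 39.4 and 40.1 CPM in FoEV. In FoEV, 4 libraries lay above all Co libraries and replicate 2 lay among them. Relative to Co, PSMB6 was higher in FoEV by a log2 fold change of 0.36 (SE 0.11), with an adjusted p of 0.168 by edgeR and of 0.0675 to 0.330 under the alternatives. In FeEV against Co it was higher by 0.23 (SE 0.12).

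PSMB7 codes for the catalytic subunit with trypsin-like activity. It was measured at 84.2, 65.1, 75.5, 64.6 and 71.0 CPM in Co, 75.1, 62.8, 82.0, 60.6 and 69.6 CPM in FeEV and 97.5, 76.7, 92.3, 69.1 and 89.1 CPM in FoEV. The 3 treatments overlapped, with FoEV replicates 1, 3 and 5 above all others. The log2 fold change was 0.24 (SE 0.11) against Co and 0.28 (SE 0.11) against FeEV, with adjusted p-values of 0.326 and 0.53.

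PSMB4 and PSMB2 code for beta subunits without a proteolytic site. PSMB4 was measured at 102.5, 100.5, 97.7, 90.7 and 106 CPM in Co, 104, 92.1, 110.4, 99.3 and 108 CPM in FeEV and 156, 106, 133, 93.8 and 115 CPM in FoEV. FoEV replicates 1, 3 and 5 were the highest of all libraries and FoEV replicate 4 lay in the lower part of the Co range. PSMB4 was higher in FoEV by 0.28 (SE 0.11) against Co (adjusted p = 0.235) and by 0.23 (SE 0.11) against FeEV (adjusted p = 0.578).

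PSMB2 was measured at 94.8, 83.0, 90.3, 87.9 and 97.7 CPM in Co, 89.7, 91.7, 87.0, 95.6 and 96.4 CPM in FeEV and 110.4, 96.4, 105, 95.5 and 116 CPM in FoEV. FoEV replicates 1, 3 and 5 lay above all Co and FeEV libraries. The log2 fold change was 0.21 (SE 0.086) against Co and 0.19 (SE 0.086) against FeEV, and the adjusted p-values were 0.252 and 0.564. The other beta ring genes, PSMB1, PSMB3 and the chymotrypsin-like PSMB5, were higher in FoEV than in Co by 0.19, 0.10 and 0.046 with standard errors of 0.10, 0.12 and 0.13. The spans of PSMB5 and PSMB11 overlap in the later bovine annotation ARS-UCD2.0, and how reads in the shared stretch were assigned is not stated.

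Immunoproteasome subunits replace the catalytic subunits of the core in immune cells and under interferon, and were scarce in these embryos. PSMB10 passed the filter of the authors and lay at 4.38, 5.40, 2.90, 4.42 and 2.46 CPM in Co, 7.75, 8.17, 2.82, 6.38 and 3.35 CPM in FeEV and 6.95, 4.04, 4.96, 5.34 and 4.36 CPM in FoEV. The treatments overlapped, and the log2 fold changes of 0.39 (SE 0.33) in FoEV and 0.51 (SE 0.33) in FeEV against Co had adjusted p-values of 0.595 and 1.0. The remaining subunits did not pass the filter. Summed over the 5 libraries of Co, of FeEV and of FoEV, PSMB9 had 27, 22 and 33 counts, PSMB8 had 3, 1 and 5, and PSMB11, the subunit of the thymus, had 0 counts in all 15 libraries, which allows a share of up to 6.29e-06% of the counts. PSMA8, the alpha subunit of germ cells, had 30, 20 and 32 counts in these sums. The sums are not scaled for depth, and every FoEV library was deeper than every Co library, so they give no direction between treatments.

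**Figure D3:**
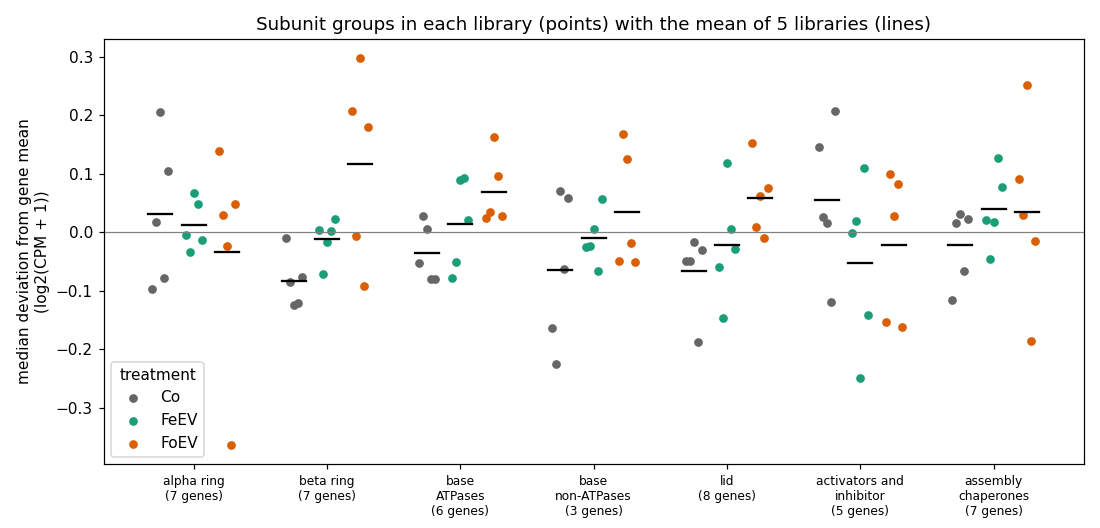
Median deviation of the genes of each subunit group from their mean over all 15 libraries, on the log2(CPM + 1) scale, in each library (points, by treatment), with the mean of the 5 libraries as lines. The beta ring points of FoEV reach 0.30 but include a library at −0.09, and 1 FoEV library lies at −0.36 in the alpha ring.

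In the base of the cap, 6 of 9 genes were higher and 3 lower in FoEV against Co, and the median of their log2 fold changes was 0.073. This median was 0.021 without FoEV replicate 3, 0.027 without FoEV replicate 4, 0.034 without Co replicate 4 and 0.14 without FoEV replicate 2. Its 6 ATPases, which form the ring that unfolds the substrate, had a median of 0.11, with 4 higher and 2 lower. PSMC3 was the ATPase with the highest value, and its level was 95.9, 76.9, 86.8, 91.1 and 78.8 CPM in Co, 89.7, 89.5, 104.5, 95.6 and 97.2 CPM in FeEV and 103, 101, 105, 99.5 and 97.3 CPM in FoEV. All FoEV libraries lay above all Co libraries, the nearest ones being FoEV replicate 5 and Co replicate 1, and FeEV overlapped with both. The log2 fold change in FoEV against Co was 0.24 (SE 0.087), with an adjusted p of 0.208 by edgeR and of 0.123 to 0.460 under the alternatives.

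The FoEV libraries also lay above all Co libraries for PSMC1, which the rule for named genes did not select and which was added after its values were seen. PSMC1 was measured at 95.9, 95.5, 85.8, 95.1 and 94.4 CPM in Co, 80.2, 101, 97.9, 105 and 107 CPM in FeEV and 101, 98.1, 110.2, 119 and 98.1 CPM in FoEV, a log2 fold change of 0.17 (SE 0.094) against Co. In all, 4 of the 46 genes, PSMC1, PSMC3, PSMD4 and PSMD11, were higher in FoEV than in Co without overlap, beside 1.26% of all genes. Lower without overlap were 0 of the 46, beside 1.35% of all genes.

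PSMC6 had the lowest value among the ATPases, −0.097 (SE 0.12) in FoEV against Co. Its level was 86.4, 126, 117, 96.3 and 108 CPM in Co, 108, 98.4, 105, 109.8 and 102 CPM in FeEV and 102, 108.5, 109.7, 71.1 and 107 CPM in FoEV. FoEV replicate 4 stood below all other libraries, and the other 4 FoEV libraries lay within the range of Co. The scaffold subunits of the base differed by less than their standard errors in all 3 comparisons. PSMD1 was at 247 ± 23.3 CPM in Co, 245 ± 12.5 CPM in FeEV and 240.4 ± 19.6 CPM in FoEV, and PSMD2 at 225 ± 21.3 CPM, 225 ± 11.95 CPM and 225 ± 11.3 CPM (SD, n = 5 each). Of PSMD1, PSMD2 and PSMD4, only PSMD4 had an unadjusted p below 0.05 in FoEV against Co.

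In the lid, 6 of 8 genes were higher and 2 lower in FoEV against Co, the median of their log2 fold changes was 0.073, and 3 of the 6 had an unadjusted p below 0.05. PSMD11 codes for a lid subunit that braces the cap against the core. The libraries held 99.9, 84.7, 101, 90.7 and 105 CPM in Co, 92.7, 97.3, 125.4, 107 and 99.2 CPM in FeEV and 124, 108.5, 125.1, 110.2 and 119 CPM in FoEV. All FoEV libraries lay above all Co libraries, and FeEV replicate 3 was level with the highest FoEV library. The log2 fold change of PSMD11 was 0.29 (SE 0.096), with an adjusted p of 0.178 by edgeR and of 0.0738 to 0.350 under the alternatives.

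PSMD8, a structural subunit of the lid, was measured at 76.2, 69.8, 72.6, 52.2 and 77.6 CPM in Co, 76.9, 58.3, 74.4, 70.6 and 72.6 CPM in FeEV and 93.3, 73.7, 89.0, 81.5 and 80.7 CPM in FoEV. FoEV replicates 1, 3, 4 and 5 lay above all Co and FeEV libraries, and Co replicate 4 was the lowest. PSMD8 was higher in FoEV by 0.26 (SE 0.11) against Co and by 0.24 (SE 0.11) against FeEV, with adjusted p-values of 0.263 and 0.564.

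PSMD3, a scaffold of the lid, was measured at 105, 95.1, 102, 85.5 and 100.1 CPM in Co, 102, 94.3, 109, 108 and 133 CPM in FeEV and 137, 106.5, 116.5, 119.5 and 102 CPM in FoEV. In FoEV, replicate 5 lay within the Co range and the other 4 above it. The log2 fold change was 0.25 (SE 0.10) in FoEV and 0.17 (SE 0.10) in FeEV against Co, with adjusted p-values of 0.243 and 1.0.

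PSMD14, the enzyme of the lid that cuts off the ubiquitin chain, had the lowest value in the lid. Its level was 105, 104, 109.6, 91.9 and 100.5 CPM in Co and 104, 93.3, 97.0, 71.1 and 107 CPM in FoEV, with replicate 4 the lowest, and differed by −0.11 (SE 0.10) between FoEV and Co. PSMD12, the other lower gene of the lid, differed by −0.094 (SE 0.10). PSMD6, PSMD13 and PSMD7 were higher in FoEV by 0.028, 0.069 and 0.077, each by less than its standard error.

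**Figure D4:**
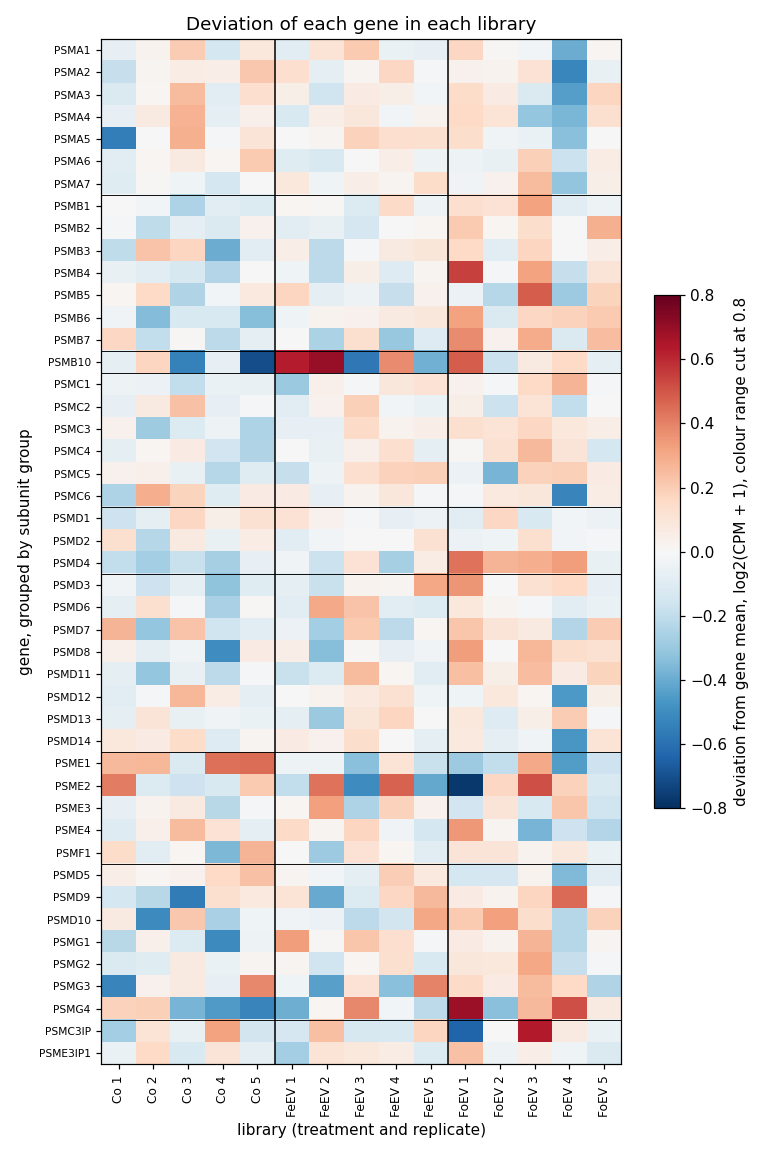
Deviation of each of the 46 genes (rows, by subunit group) from its mean over the 15 libraries (columns, by treatment and replicate), on the log2(CPM + 1) scale with the colour range cut at 0.8. The column of FoEV replicate 4 is below the mean in all 7 alpha ring genes and above it in PSMD4.

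Of the 12 regulators and assembly chaperones, 8 were higher and 4 lower in FoEV than in Co, and the median of their log2 fold changes was 0.067. It was 0.025 without Co replicate 4, 0.037 without FoEV replicate 3, 0.12 without Co replicate 5 and 0.12 with the library number as a block. The activators and the inhibitor of the core had a median of −0.014 and the assembly chaperones of 0.20. PSME1 codes for a subunit of the activator that opens the core independently of ubiquitin and is induced by interferon. It was measured at 20.8, 20.9, 15.8, 23.7 and 23.8 CPM in Co, 16.7, 16.7, 13.5, 18.7 and 15.1 CPM in FeEV and 13.9, 14.9, 21.5, 12.4 and 15.3 CPM in FoEV. All 3 treatments overlapped, with Co replicate 3 low among the controls and FoEV replicate 3 high among the FoEV libraries.

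PSME1 was lower by 0.42 on the log2 scale (SE 0.17) in FoEV and by 0.38 (SE 0.17) in FeEV than in Co, with adjusted p-values of 0.23 and 1.0. Both values rest on the same Co libraries. Its partner in the activator, PSME2, differed by −0.014 (SE 0.29) and −0.080 (SE 0.30). PSME3 and PSME4, activators found in the nucleus, differed by 0.020 (SE 0.11) and −0.11 (SE 0.11) in FoEV against Co. The inhibitor PSMF1 differed by 0.043 (SE 0.14), from 23.2 ± 3.90 CPM in Co to 23.9 ± 1.14 CPM in FoEV (SD, n = 5 each), and by −0.037 without Co replicate 4.

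Assembly chaperones hold the subunits while the core and the base are put together. PSMG4, a chaperone of the core, had the highest log2 fold change of all 46 genes in FoEV against Co, 0.49 (SE 0.26). It was measured at 8.02, 8.10, 5.16, 4.82 and 4.51 CPM in Co, 5.07, 7.06, 9.38, 6.83 and 5.87 CPM in FeEV and 11.8, 5.30, 8.54, 10.4 and 7.36 CPM in FoEV, and the treatments overlapped. Its adjusted p was 0.38.

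PSMG1, another chaperone of the core, was the only one of the 46 genes that was higher in FeEV than in Co at an unadjusted p below 0.05. The libraries held 32.1, 38.8, 34.8, 26.1 and 36.5 CPM in Co, 47.7, 37.9, 44.1, 41.4 and 37.2 CPM in FeEV and 39.4, 38.3, 45.7, 32.1 and 38.2 CPM in FoEV. FeEV replicates 1, 3 and 4 lay above all Co libraries, and Co replicate 4 was the lowest. PSMG1 was higher by 0.31 (SE 0.13) in FeEV and by 0.20 (SE 0.13) in FoEV against Co, with adjusted p-values of 1.0 and 0.455.

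PSMD5, a chaperone of the base, was measured at 35.7, 34.8, 35.2, 38.5 and 40.6 CPM in Co, 34.9, 33.8, 32.5, 39.6 and 36.3 CPM in FeEV and 31.0, 31.3, 35.0, 26.7 and 32.2 CPM in FoEV. In FoEV, 4 libraries lay below all Co libraries and replicate 3 lay among them. The log2 fold change of PSMD5 against Co was −0.24 (SE 0.11), with an adjusted p of 0.311. The other chaperones of the base, PSMD9 and PSMD10, were higher by 0.29 (SE 0.17) and 0.22 (SE 0.13), and the remaining chaperones of the core, PSMG2 and PSMG3, by 0.10 (SE 0.11) and 0.090 (SE 0.22). PSMC3IP and PSME3IP1, the pair outside the proteasome, differed by 0.048 (SE 0.20) and 0.020 (SE 0.11).

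The comparison between FeEV and Co addressed whether fresh oEVs changed these genes. By edgeR, 0 of the 46 genes passed the adjusted threshold, beside 0% of all genes, and neither the likelihood ratio test with a robust dispersion, beside 0.0554% of all genes, nor DESeq2, beside 0.00923%, called any of them. At an unadjusted p below 0.05, 1 gene was higher, PSMG1, beside 1.83% of all genes, and 1 was lower, PSME1, beside 2.32% of all genes. This count of 2 stood beside 4.1% of all genes. It was 4 without Co replicate 1 and 0 without Co replicate 4. It was 1 without Co replicate 5 or without FeEV replicate 1, 3 or 5. In these fits the share of all genes was 2.9 to 4.6%. In FeEV, 28 of the 46 genes were higher than in Co, beside 51.0% of all genes, and the median log2 fold change was 0.012, with a range of 0.0068 (without Co replicate 4) to 0.041 (without Co replicate 3) over the libraries left out in turn and a value of −0.0029 with the library number as a block. The medians were 0.021 in the core, 0.073 in the base, 0.014 in the lid and −0.00057 in the regulators and assembly chaperones.

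The comparison between FoEV and FeEV addressed whether the state of the vesicles made a difference. By edgeR, 0 of the 46 genes passed the adjusted threshold, beside 0% of all genes, and 0 were called by the likelihood ratio test with a robust dispersion, beside 0.286% of all genes, or by DESeq2, beside 0.0277%. At an unadjusted p below 0.05, 5 genes were higher in FoEV, beside 4.83% of all genes, and 0 were lower, beside 3.69% of all genes. The 5 were PSMB2, PSMB4, PSMB7, PSMD4 and PSMD8. In both directions together, the count of 5 stood beside 8.5% of all genes. It was 3 without FeEV replicate 1, 1 without FeEV replicate 2 and 2 without FeEV replicate 4. It was 2 without FoEV replicate 1 and 1 without FoEV replicate 3. In these fits the share of all genes was 5.9 to 9.1%. In FoEV, 27 of the 46 genes were higher than in FeEV, beside 51.8% of all genes, and the median log2 fold change was 0.055. It was 0.011 without FoEV replicate 3 and 0.030 without FeEV replicate 1 or 2. All 7 beta ring genes were higher in FoEV, with a median of 0.13 that ran from 0.084 (without FoEV replicate 1) to 0.19 (without FoEV replicate 2), and 1 of 7 alpha ring genes.

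Beyond the PSM symbols, 29 other genes of the pathway were examined, and all 29 were in the filtered table. In FoEV against Co, 13 were higher and 16 lower, and their median difference on the log2 scale was −0.014. By edgeR, 0 had an adjusted p below 0.05, beside 0.00923% of all genes. The likelihood ratio test with a robust dispersion called 2 of the 29, DDI2 and SEM1, beside 2.87% of all genes. DESeq2 called 0, beside 1.27% of all genes. At an unadjusted p below 0.05 by edgeR, 3 were higher, namely ADRM1, SEM1 and UBB, beside 8.18% of all genes. Another 4 were lower, namely PAAF1, NFE2L2, NGLY1 and DDI2, beside 6.88% of all genes. In FeEV against Co, 9 were higher and 20 lower. Of these, 0 had an unadjusted p below 0.05, beside 1.83% (higher) and 2.32% (lower) of all genes. In FoEV against FeEV, 16 were higher and 13 lower. At an unadjusted p below 0.05, 2 were higher, POMP and UBB, beside 4.83% of all genes, and 0 lower, beside 3.69%. In both of these comparisons, edgeR, the robust likelihood ratio test and DESeq2 called 0 of the 29, beside the shares of all genes given above.

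ADRM1, like PSMD4 a ubiquitin receptor of the base, was measured at 52.5, 42.2, 51.0, 43.4 and 45.1 CPM in Co, 60.5, 45.3, 54.1, 47.8 and 53.1 CPM in FeEV and 60.9, 50.0, 57.3, 77.8 and 55.9 CPM in FoEV. In FoEV, 4 libraries lay above all Co libraries and replicate 2 lay within the Co range. Its log2 fold change was 0.36 (SE 0.12) in FoEV against Co, with an adjusted p of 0.179.

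SEM1, a small subunit of the lid that the study also listed from these libraries, was measured at 23.3, 23.6, 30.3, 20.9 and 26.7 CPM in Co, 29.2, 29.0, 34.1, 24.6 and 25.4 CPM in FeEV and 45.4, 36.8, 37.2, 18.4 and 39.8 CPM in FoEV. In FoEV, replicate 4 was the lowest of all libraries and the other 4 were the highest. Its log2 fold change against Co was 0.51 (SE 0.18), with an adjusted p of 0.189. UBB, which codes for ubiquitin, was higher in FoEV by 0.18 (SE 0.084) against Co and by 0.21 (SE 0.084) against FeEV.

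The 4 lower genes included 3 of the 5 genes listed for transcriptional control. DDI2 and NGLY1 code for a protease and a deglycosylase that process NFE2L1, the transcription factor that drives proteasome genes when the proteasome is short, and NFE2L2 codes for its relative in the response to oxidants. DDI2 was measured at 190.0, 199, 214.5, 230.4 and 171.5 CPM in Co, 151, 208, 187, 181 and 173.5 CPM in FeEV and 134.5, 183, 155, 141 and 172 CPM in FoEV, with a log2 fold change of −0.36 (SE 0.11) in FoEV against Co and an adjusted p of 0.145. The groups overlapped, since FoEV replicates 2 and 5 lay above Co replicate 5. NFE2L2 was lower by 0.24 (SE 0.11) and NGLY1 by 0.23 (SE 0.11). The other 2 genes listed for transcriptional control, NFE2L1 itself and VCP, were higher in FoEV against Co by 0.13 (SE 0.11) and 0.090 (SE 0.078). PAAF1, a factor that binds the ATPases of the base, was lower by 0.37 (SE 0.18). POMP, which guides the maturation of the core, differed by 0.18 (SE 0.11) between FoEV and Co and was higher in FoEV than in FeEV by 0.31 (SE 0.11), with an adjusted p of 0.496.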

How the data were processed

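Low-input total RNA-seq libraries (Ovation SOLO kit, ribosomal RNA cleavage, strand selection) were made by the authors from 15 pools of embryos. The authors mapped the reads to ARS-UCD1.2 and deposited counts of reads per gene without normalization, as a table of 34773 genes and a table of the 10832 genes left after filtering on low values. The paper names QuasR Qcount for counting, and the submitters' processing notes name Trim Galore 0.4.3.1, HISAT2 2.1.0 and featureCounts 1.6.3. The text of the paper gives a culture time that differs from the day 7 of the labels.

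Here, the filtered counts were scaled by TMM and compared by edgeR 4.0.16 in R 4.3.3 (quasi-likelihood F test) in 1 fit of all 15 libraries with treatment as the only factor. Benjamini-Hochberg adjustment covered all 10832 genes. CPM values are counts relative to TMM-scaled library sizes, except those of the cell type markers, which carry no TMM factor. Log2 fold changes are those of the fit. Standard errors (SE) were derived from the test, as the absolute log2 fold change divided by the square root of the F statistic. Gene symbols came from the ARS-UCD2.0 annotation by gene identifier, with an entry for 10709 of the 10832 genes, and its coordinates served only to see whether genes overlap. Copies of these genes without a symbol were not looked for.

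Alternatives were the likelihood ratio test with a robust dispersion, DESeq2 1.42.0, RLE factors, 3 other filters, 2 blocks, a fit of the 2 groups compared only, removal of ribosomal RNA genes, thinning to equal depth and leaving out each library. Counts were also simulated, in a single draw with changed genes and a single draw without. There, the false calls of the quasi-likelihood test stayed below the nominal rate, while those of DESeq2 and, further, of the robust likelihood ratio test exceeded it. The draws used dispersions estimated by edgeR and larger changes than that of PSMD4. They therefore do not settle which test is right for these data. The rule for named genes took PSMD4, every gene with an unadjusted p below 0.05 in a comparison, and the highest and lowest gene of each subunit group in FoEV against Co. Outside this rule, values are also given for PSMC1, PSMD2, PSMC3IP, PSME3IP1, NFE2L1 and VCP. The same holds for the remaining genes of the beta ring, the lid, the activators and the assembly chaperones. Genes that did not pass the filter are given by their counts. The members, subunit groups and lists were chosen with earlier results of these data known, and 2 genes of the wider pathway list are not reported here. The paper does not state that molecular identifiers were used in counting, so that a count of 0 limits counting error only.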

Additional observations from a re-analysis of the deposited data

Results flagged for a closer look

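In 93 groups of 5 libraries, formed by the 25 genes of the proteasome and its pathway given above in CPM and by 6 subunit groups within each treatment, the highest and lowest library was compared with the nearest of the others. In 5 of them the gap was larger than 0.71 of the range of the group (Dixon's 95% critical value), and chance alone flags about 1 in 20 groups. PSMC6, an ATPase of the base, was at 71.1 CPM in FoEV replicate 4, while the other FoEV libraries lay between 101.9 and 109.7 CPM. PSMC1, another ATPase, was at 85.8 CPM in Co replicate 3, while the other Co libraries lay between 94.4 and 95.9 CPM. PSMD2, a scaffold of the base, was at 245.2 CPM in FoEV replicate 3, while the other FoEV libraries lay between 217 and 223.5 CPM. The summed level of the alpha ring was 482.8 CPM in FoEV replicate 4, while the others lay between 634.4 and 659.9 CPM. The summed level of the regulators and assembly chaperones was 866.5 CPM in Co replicate 3, while the other Co libraries lay between 755.1 and 782.2 CPM.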

How the results depend on the processing

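The number of the 46 genes with an unadjusted p below 0.05 was 11 in FoEV against Co, 2 in FeEV against Co and 5 in FoEV against FeEV. The share of all genes was 15.1%, 4.1% and 8.5% in these comparisons. With the library number of the descriptions as a block the number was 5, 0 and 2, beside 14.6%, 5.1% and 6.3% of all genes. With genes of at least 20 CPM on average, which kept 39 of the 46, it was 1 in FeEV against Co, beside 4.1%. With only the groups compared it was 3 in FoEV against FeEV, beside 8.3%. Leaving out each library in turn gave 6 to 12, 0 to 4 and 1 to 5. In these fits the share of all genes ran from 11.5 to 18.1%, from 2.9 to 5.6% and from 5.9 to 11.4%. The cause of these shifts was not tested.

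In FoEV against Co, the adjusted p of PSMD4 passed the threshold with the robust dispersion (log2 difference 0.48) and with DESeq2 (0.46). It also passed in the unfiltered table (0.46), among genes of at least 20 CPM (0.48) and with the replicate block (0.46). The exact test, with a difference of 0.45, gives an unadjusted p for a single gene and is not set against that threshold. With each library left out in turn the log2 difference of PSMD4 was 0.42 to 0.54. In FoEV against FeEV the exact test of PSMD4, with a difference of 0.31, gave an unadjusted p of 0.0317, while the adjusted p by edgeR was 0.486. The direction turned for PSMA7 (−0.013 without FoEV replicate 3, and −0.013 to 0.13 over all libraries left out in turn) and PSMF1 (−0.037 without Co replicate 4, and −0.037 to 0.12), both in FoEV against Co.

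Whether the replicate numbers of the titles pair the libraries was not settled. Libraries that share a title number mostly carry different library numbers in their descriptions. Of 15 pairs with the same title number, 7 correlated above 0.1, and all 15 ranged from −0.29 to 0.44. The mean correlation was 0.119 for pairs with the same title number and −0.0298 for pairs with other title numbers. Of 10 pairs with the same library number, 3 correlated above 0.1, and all 10 ranged from −0.20 to 0.44. The fit with the title numbers as a block gave PSMD4 an adjusted p of 0.0440 and called 57 genes of the whole table in place of 1. The exact sign-flip test over the pairs by title number gave p = 0.0625, the smallest it allows.

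The calls of all genes depended on the test. In FoEV against Co they numbered 1 with the quasi-likelihood test, 311 with the robust dispersion, 138 with DESeq2, 173 in the unfiltered table, 30 among genes of at least 20 CPM, 12 with the library number as a block, 5 with only these groups and 6 after thinning. In FeEV against Co they numbered 0, and 6, 1 and 13 with the robust dispersion, with DESeq2 and in the unfiltered table. In FoEV against FeEV they numbered 0, and 31, 3 and 22.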
